A study of Homo sapiens with 4 samples.

Results

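The core spliceosome genes examined here are 59 genes for proteins of the snRNPs (small nuclear ribonucleoproteins) and of the complexes that join them, out of 63677 genes in the deposited tables and 19142 tested. They were taken by name from textbook membership of the machinery, with earlier results of these data known. Each was found under 1 Ensembl gene ID. All 59 passed the low-count filter. The cells were H929, an established line of human multiple myeloma, a cancer of plasma cells, grown in RPMI medium. They had been transduced with a short hairpin RNA (shRNA) against ILF2 in 2 libraries or with a non-silencing shRNA in 2 libraries, and total RNA was sequenced after removal of ribosomal RNA. The labels name no other treatment, and the sources used here do not say if 1 hairpin or more was used against ILF2. All values come from this 1 cell line in bulk culture, where fewer cells with a transcript and less transcript per cell cannot be told apart.

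The spliceosome removes introns from pre-mRNA. U1 first recognises the 5′ splice site and U2 the branch point; the U4/U6.U5 tri-snRNP then joins, U1 and U4 leave, and the PRP19 complex helps to hold the active centre made by U2 and U6. Each of U1, U2, U4 and U5 is built on a ring of Sm proteins, whereas U6 carries a ring of LSm proteins, and helicases drive the steps from one complex to the next. ILF2 encodes a subunit of a complex that binds double-stranded RNA, and the study set cells with reduced ILF2 beside cells with a hairpin that targets no gene.

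The libraries held 63459322 and 71359863 counted fragments with ILF2 shRNA, against 72977082 and 71389341 with non-silencing shRNA. ILF2 itself had 6821 and 7911 fragments in the ILF2 shRNA libraries, against 53115 and 52851 in the non-silencing libraries. Its log2 fold change was -2.71 (SE 0.07; edgeR's quasi-likelihood test, adjusted p = 9.2e-39), so the libraries carry the knockdown that their labels name. Marker genes of plasma cells were abundant in every library, with 8 of 8 detected at summed levels of 7130 and 7340 CPM, a gene's count scaled to a common library size with TMM normalisation, with ILF2 shRNA and 7020 and 6980 CPM with non-silencing shRNA. In the plasma cell list MZB1, CD38 and TNFRSF17 were higher, with log2 fold changes of 0.48, 0.28 and 0.25. Their edgeR adjusted p-values were 7.5e-08, 0.00164 and 0.00314. SDC1 and SLAMF7 were lower, with -0.24 and -0.26 (edgeR adjusted p = 0.00616 and 0.00268). IRF4, PRDM1 and XBP1 were not called, with 0.09, 0.16 and -0.01 (edgeR adjusted p = 0.347, 0.0841 and 0.925). Markers of less mature B cells summed to 0.694 to 1.03 CPM over the 4 libraries, and 1 of 5 was at 0. In the T and NK cell list CD3D and CD2 stayed under 0.1 CPM. CD3E had 16.1 and 17 CPM with ILF2 shRNA against 8.22 and 7.49 CPM with non-silencing shRNA. CD3E and GNLY were higher, with log2 fold changes of 1.07 and 1.36 (edgeR adjusted p = 8.2e-14 and 4.6e-08). NKG7 had 0.34 (edgeR adjusted p = 0.363). The list summed to 19.4 and 20 CPM with ILF2 shRNA and 9.85 and 9.08 CPM with non-silencing shRNA. Myeloid markers summed to 0.376 to 0.763 CPM over the 4 libraries. Fibroblast and epithelial markers summed to 29.6 and 29.4 CPM with ILF2 shRNA and 24.4 and 23.5 CPM with non-silencing shRNA, mostly from KRT18. The part of the T and NK cell list in the results below was not tested.

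Of the 59 core spliceosome genes, 1 rose and 0 fell with ILF2 shRNA at an adjusted p under 0.05 in edgeR. Of all tested genes 20.3% were called, 10.2% higher and 10.1% lower. Among the tested genes at least as abundant as the lowest member, 25% were called. The riser was SF3B5. At an unadjusted p under 0.05, 3 members were higher and 7 lower, where 30.9% of all tested genes passed, 15.5% higher and 15.4% lower. DESeq2 and limma-voom likewise called 1 member higher and 0 lower, where they called 14.3% and 19.5% of all tested genes. Log2 fold changes of the members ran from -0.19 to 0.24, with a median of -0.05 beside 0 over all genes tested. The median size of a member's log2 fold change, sign aside, was 0.08, against 0.17 over all tested genes and 0.11 over the 9084 tested genes that were at least as abundant as the lowest member.

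The size of change that these libraries allow was read from intervals. A 95% interval of the log2 fold change was computed for each gene from its standard error. That error draws mostly on variance shared across genes, so a gene's own replicate spread counts less in it. For all 59 members this interval lay between -0.5 and 0.5, and its farthest bound was 0.38, that of SF3B5. The same held for 55.9% of all tested genes and for 90.5% of those at least as abundant as the lowest member. In 9 members both ILF2 shRNA libraries lay above both non-silencing libraries, in 19 they lay below, and in 31 the groups overlapped; over all tested genes the groups were apart in 56.5%, with 28.5% higher and 28% lower.

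**Figure D1:**
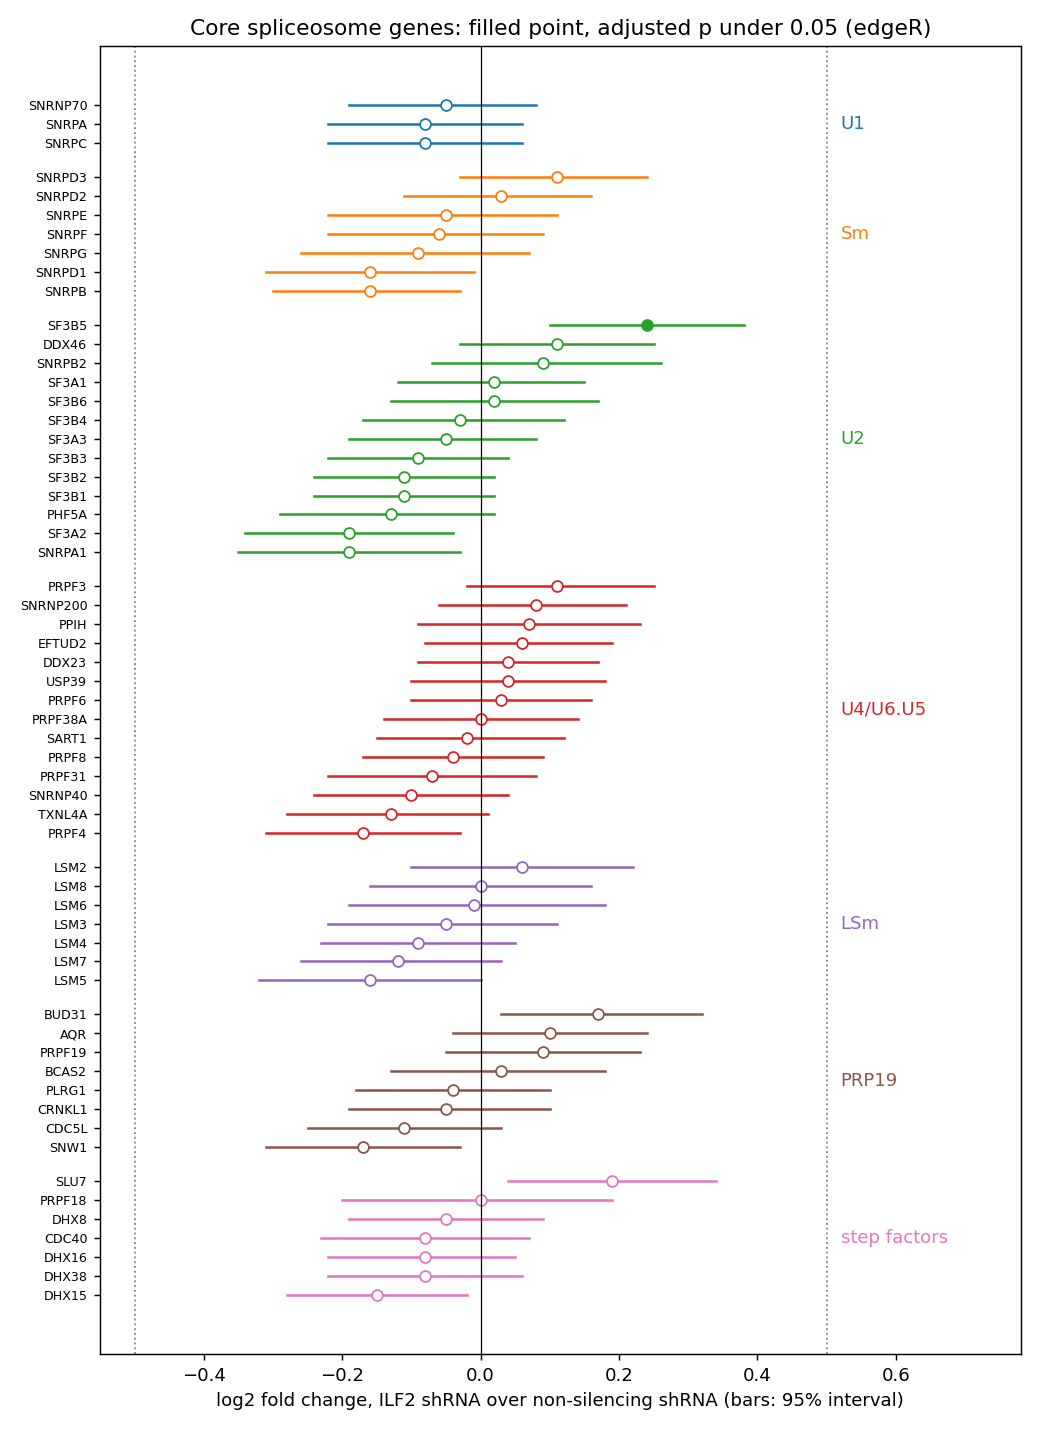
Log2 fold change of each core spliceosome gene, ILF2 shRNA over non-silencing shRNA (horizontal axis), with bars for the 95% interval, grouped by the particle or stage named at the right. Only SF3B5 has a filled point (edgeR adjusted p under 0.05), and every bar lies between the dotted lines at -0.5 and 0.5.

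**Figure D2:**
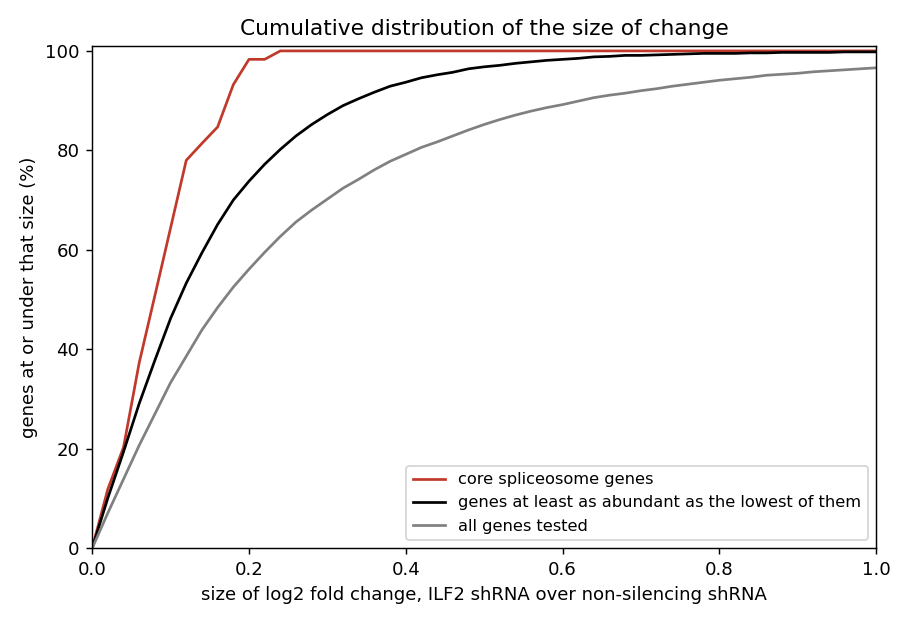
Percentage of genes (vertical axis) whose log2 fold change has at most the size on the horizontal axis. The curve of the 59 core spliceosome genes reaches its end at 0.24, while those of all 19142 tested genes and of the 9084 at least as abundant as the lowest member go on to larger changes.

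SF3B5 encodes a small subunit of SF3b, the part of U2 that clamps the branch point. It had 8760 and 10655 fragments with ILF2 shRNA, or 137 and 154 CPM, against 9382 and 8693 fragments, or 127 and 121 CPM, with non-silencing shRNA. Both ILF2 shRNA libraries were above both non-silencing libraries, by 18% on average in the model (fold 1.18), and the groups did not overlap. Its log2 fold change was 0.24 (SE 0.07, 95% interval 0.10 to 0.38; edgeR adjusted p = 0.00939). With the replicate number as a block it was again 0.24 but did not pass (edgeR adjusted p = 0.0974), though nothing in the titles pairs the libraries. Leaving out a library leaves 1 in its group, so only effect sizes are given for those fits. The SF3B5 value was 0.32 when ILF2 shRNA replicate 1 was dropped and 0.15 when replicate 2 was. In the non-silencing group it was 0.27 with replicate 1 dropped and 0.20 with replicate 2 dropped. The call held only in the fit that dropped ILF2 shRNA replicate 1 and ended in the others.

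SF3B5 was also the member with the highest level per exon length, at 198 ± 15.8 CPM per kb with ILF2 shRNA and 168 ± 5.77 CPM per kb with non-silencing shRNA (SD, n = 2 each). This rank depends on the annotated exon length. By CPM alone SF3B5, at 146 with ILF2 shRNA and 124 with non-silencing shRNA, was below SF3B2, at 661 and 714. SF3B5 is the only member whose annotated exons form 1 unbroken block, 737 bases long on GRCh37 chromosome 6, 144416018 to 144416754, minus strand. Its own transcript thus has no intron in that annotation. The other members had between 2 and 42 exon blocks. Its coding sequence, read from GRCh37 at chr6:144416374-144416634, minus strand, is 261 bases in 1 block and encodes 86 amino acids. It is shown because it is the transcript of the 1 called member, with the start and stop codons in capitals.
SF3B5 coding sequence: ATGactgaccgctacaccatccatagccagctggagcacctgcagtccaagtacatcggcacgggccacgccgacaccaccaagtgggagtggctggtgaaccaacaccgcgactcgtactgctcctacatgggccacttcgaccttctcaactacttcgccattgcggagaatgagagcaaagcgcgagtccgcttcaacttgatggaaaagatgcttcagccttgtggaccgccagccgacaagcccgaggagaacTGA

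Promoters were compared because the members are known parts of 1 machinery, and the rule that chose them did not use sequence. RefSeq windows of 300 bases (GRCh38.p14), from 250 before to 50 after the gene start, were matched for 54 of the 59 members; LSM6, PHF5A, PRPF3, SF3B3 and SNRPD1 had no entry. The core of sites bound by ETS family transcription factors, the letters CCGGAA, stood on either strand in 33 of 54 member windows, or 61.1%. They stood in 17.2% of all 35116 windows, in 22.9% of 15842 windows of protein-coding genes, and in 34% of 7042 windows of protein-coding genes at least as abundant as the lowest member. By class, U2 genes held them in 9 of 11 windows, the step factors in 6 of 7 and the Sm genes in 4 of 6. LSm genes held them in 3 of 6, PRP19 genes in 4 of 8, U4/U6.U5 genes in 6 of 13 and U1 genes in 1 of 3. Differences between classes were not tested. The 7042 windows are the last set of windows compared above. That last set has the lowest member as its floor and is not matched to the members in abundance. The GC box letters GGGCGG were in 68.5% of member windows and in 72.7% of the same 7042 windows. The TATA box letters TATAAA were in 3.7% and 4.83%. The CCAAT box letters CCAAT were in 35.2% of member windows and in 38.4% of the 7042 windows. A match is a description of letters and not a bound site.

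The windows of SLU7, SF3A2 and SF3B5 show the range of the ETS letters, with 3 matches, 1 match and 0 matches among genes at the ends of the range of fold changes. Capitals mark the ETS, GC box and CCAAT box letters given above, on either strand. SLU7 lies at chr5:160419032-160419331, minus strand, SF3A2 at chr19:2236574-2236873, plus strand, and SF3B5 at chr6:144095524-144095823, minus strand, all on GRCh38.p14.
SLU7 promoter: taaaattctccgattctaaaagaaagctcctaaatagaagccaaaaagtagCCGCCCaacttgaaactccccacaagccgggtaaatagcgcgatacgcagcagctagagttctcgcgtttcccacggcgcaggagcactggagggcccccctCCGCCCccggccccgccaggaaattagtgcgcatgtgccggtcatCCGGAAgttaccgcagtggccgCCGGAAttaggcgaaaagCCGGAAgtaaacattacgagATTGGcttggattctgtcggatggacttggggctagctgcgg
SF3A2 promoter: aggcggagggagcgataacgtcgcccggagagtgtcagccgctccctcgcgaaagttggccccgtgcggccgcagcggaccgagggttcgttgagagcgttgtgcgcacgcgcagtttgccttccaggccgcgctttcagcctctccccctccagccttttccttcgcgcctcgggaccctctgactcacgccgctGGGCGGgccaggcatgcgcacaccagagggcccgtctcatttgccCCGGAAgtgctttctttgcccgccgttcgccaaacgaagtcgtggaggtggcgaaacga
SF3B5 promoter: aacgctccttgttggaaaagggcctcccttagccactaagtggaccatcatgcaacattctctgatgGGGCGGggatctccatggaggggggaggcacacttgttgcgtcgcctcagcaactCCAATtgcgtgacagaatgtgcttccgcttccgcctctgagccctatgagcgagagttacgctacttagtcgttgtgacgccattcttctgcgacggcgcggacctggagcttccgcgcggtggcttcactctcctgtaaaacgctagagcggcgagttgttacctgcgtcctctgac
The 33 members with the ETS letters had a median log2 fold change of -0.03, from -0.19 to 0.19, and the 21 members without them had -0.06, from -0.17 to 0.24. Members with and without the letters thus covered nearly the same span of change.

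U1 is represented by 3 genes, and 0 of 3 were called. SNRNP70 encodes the protein that binds the first stem-loop of U1 snRNA and had 175 and 180 CPM with ILF2 shRNA, against 191 and 178 CPM with non-silencing shRNA. The groups overlapped, and the log2 fold change was -0.05 (95% interval -0.19 to 0.08; edgeR adjusted p = 0.653). SNRPA, for the A protein of U1, and SNRPC, for its C protein, each had a log2 fold change of -0.08. Per exon length SNRPC was the highest at 61.7 ± 3.23 CPM per kb with ILF2 shRNA and 65.1 ± 0.78 CPM per kb with non-silencing shRNA (SD, n = 2 each), and SNRPA the lowest at 33.9 ± 2.06 CPM per kb with ILF2 shRNA and 35.8 ± 1.55 with non-silencing shRNA. SNRNP70, at 37.9 ± 0.663 CPM per kb with ILF2 shRNA and 39.3 ± 2 with non-silencing shRNA, stood close above SNRPA.

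The 7 Sm genes encode the ring that is assembled on each snRNA, and 0 of 7 were called; their log2 fold changes ran from -0.16 to 0.11 with a median of -0.06. Their summed level was 491 and 492 CPM with ILF2 shRNA, against 499 and 505 CPM with non-silencing shRNA. SNRPB, the gene for SmB and its longer form, had 99.4 and 104 CPM with ILF2 shRNA, against 115 and 113 CPM with non-silencing shRNA. The ILF2 shRNA libraries were below the others without overlap, with a log2 fold change of -0.16 (SE 0.07; edgeR unadjusted p = 0.0195, adjusted p = 0.0818). SNRPD1, for SmD1, had 51.2 and 45.7 CPM with ILF2 shRNA, against 52.5 and 55.9 CPM with non-silencing shRNA. Here too the groups were apart, and the log2 fold change was again -0.16 (edgeR unadjusted p = 0.0352, adjusted p = 0.126). It was -0.24 without ILF2 shRNA replicate 1 (adjusted p = 0.0239) and -0.08 without replicate 2 (adjusted p = 0.594). SNRPD3, for SmD3, leaned the other way with 113 and 119 CPM with ILF2 shRNA against 110 and 106 CPM with non-silencing shRNA (log2 fold change 0.11, edgeR adjusted p = 0.309). SNRPD2 had a log2 fold change of 0.03, SNRPE -0.05, SNRPF -0.06 and SNRPG -0.09, with no call among them.

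Although the Sm proteins enter the ring in equal numbers, the levels of their transcripts per exon length differed 9.06-fold between the highest and the lowest in the non-silencing libraries. SNRPD2 stood highest at 91.1 ± 2.02 CPM per kb with ILF2 shRNA and 89.3 ± 1.89 with non-silencing shRNA (SD, n = 2 each, here and for the genes that follow). Next came SNRPB at 55.7 ± 1.74 CPM per kb with ILF2 shRNA and 62.5 ± 0.492 with non-silencing shRNA, and SNRPD3 at 45.6 ± 1.56 with ILF2 shRNA and 42.4 ± 1.24 with non-silencing shRNA. SNRPD1 had 26.3 ± 2.12 CPM per kb with ILF2 shRNA and 29.4 ± 1.29 with non-silencing shRNA. The remaining 3 genes of the ring were lower. SNRPE had 19.3 ± 2.17 CPM per kb with ILF2 shRNA and 20 ± 1.25 with non-silencing shRNA, and SNRPG 11.8 ± 0.922 with ILF2 shRNA and 12.6 ± 0.549 with non-silencing shRNA. SNRPF had 9.43 ± 0.264 CPM per kb with ILF2 shRNA and 9.86 ± 0.104 with non-silencing shRNA. The order was the same in both groups, and each step down it was larger than the SDs of its neighbours. Both the order and the span depend on the annotated exon length, which takes in every annotated form of a gene. By CPM alone SNRPG was the lowest, at 21.3 with ILF2 shRNA and 22.7 with non-silencing shRNA, below SNRPF at 28.7 and 30.

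The lower end of that order rests on genes with close copies elsewhere in the genome. The files hold 10 annotated pseudogenes named for SNRPE, 20 for SNRPG and 4 for SNRPF. Fragments counted on them came to 102%, 62.8% and 8.54% of those counted on the genes themselves, and the part of fragments that match both was not tested. Gene and copies of SNRPE together had 60 and 54.3 CPM with ILF2 shRNA, against 58.6 and 60.7 CPM with non-silencing shRNA, a log2 ratio of -0.06. For SNRPG the sums were 36.1 and 33.7 CPM with ILF2 shRNA, against 35.7 and 37.6 CPM with non-silencing shRNA, a log2 ratio of -0.07. In SNRPE and SNRPG the differences between groups stayed close to those of the gene alone, while the levels are uncertain. In all, 21 of the 59 members had such pseudogenes in the files.

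**Figure D3:**
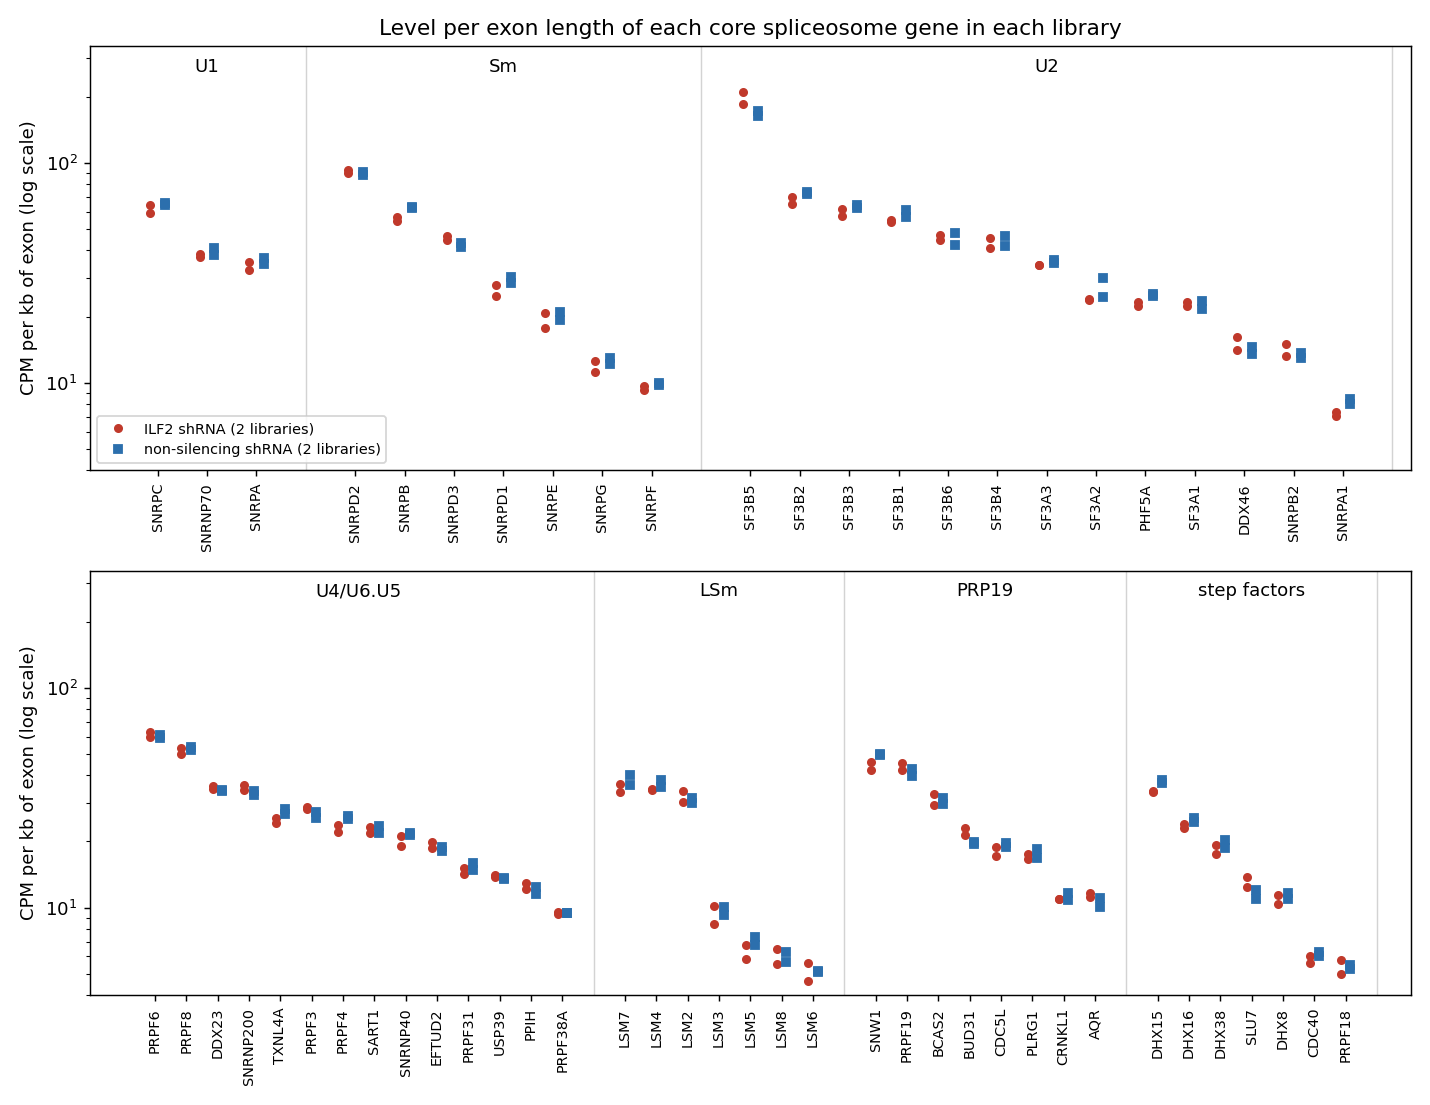
Level of each core spliceosome gene in each library as CPM per kb of exon on a log axis, with ILF2 shRNA libraries as circles at the left and non-silencing libraries as squares at the right of each gene. Within each particle the genes keep nearly the same order of levels in both groups. SF3B5 stands highest on this scale, which depends on the annotated exon length, at 164 to 209 CPM per kb.

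Among 13 genes of U2, 1 rose and 0 fell, with a median log2 fold change of -0.05. Apart from SF3B5, the SF3b genes had log2 fold changes from -0.13 to 0.02. The scaffold gene SF3B1 had 505 and 496 CPM with ILF2 shRNA, against 521 and 560 CPM with non-silencing shRNA. Its groups were apart, but its log2 fold change of -0.11 did not pass (95% interval -0.24 to 0.02; edgeR adjusted p = 0.26). SF3B2 had -0.11, SF3B3 -0.09, SF3B4 -0.03 and SF3B6, for the protein at the branch point adenosine, 0.02. PHF5A, for the protein that lines the pocket of that adenosine, had -0.13 (edgeR adjusted p = 0.252).

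The other parts of U2 held the members with the most negative values. SF3A2, for a subunit of SF3a, had 74.1 and 75.5 CPM with ILF2 shRNA, against 93.4 and 76.7 CPM with non-silencing shRNA. Non-silencing replicate 1 stood far above the other 3 libraries, and the log2 fold change of -0.19 (edgeR unadjusted p = 0.0162, adjusted p = 0.0716) was -0.04 without it and -0.32 without non-silencing replicate 2 (adjusted p = 0.0246). SNRPA1, for the A′ protein of U2, had 27.1 and 25.8 CPM with ILF2 shRNA, against 29.4 and 30.9 CPM with non-silencing shRNA. The groups were apart, with a log2 fold change of -0.19 (SE 0.08; edgeR unadjusted p = 0.0216, adjusted p = 0.0879). It was also the lowest of the U2 genes per exon length, at 7.22 ± 0.253 CPM per kb with ILF2 shRNA and 8.21 ± 0.287 with non-silencing shRNA (SD, n = 2 each). A pseudogene of SNRPA1 took a further 39% of its fragments, and with it the log2 ratio was again -0.19. Its partner gene SNRPB2, for the B″ protein of U2, had a log2 fold change of 0.09, SF3A1 0.02 and SF3A3 -0.05. DDX46, for the PRP5 helicase that acts as U2 joins, had 0.11 (edgeR adjusted p = 0.287), with 0.02 without ILF2 shRNA replicate 1 (adjusted p = 0.916), 0.20 without replicate 2 (adjusted p = 0.0437) and 0.06 without non-silencing replicate 1 (adjusted p = 0.807). This gene is on chromosome 5, where the median over 900 tested genes was 0.15 on the log2 scale. The medians of the other chromosomes that hold members ran from -0.04 to 0.01.

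Of the 14 genes of the U4/U6.U5 tri-snRNP, 0 were called, with a median fold change of 0.02 on the log2 scale. PRPF8 encodes the scaffold of the catalytic centre and had 568 and 604 CPM with ILF2 shRNA, against 613 and 591 CPM with non-silencing shRNA. Its groups overlapped, with a log2 fold change of -0.04 (95% interval -0.17 to 0.09; edgeR adjusted p = 0.748). SNRNP200, for the BRR2 helicase that unwinds U4 from U6, had 376 and 395 CPM with ILF2 shRNA, against 373 and 358 CPM with non-silencing shRNA. The ILF2 shRNA libraries were above the others by a narrow margin, with a log2 fold change of 0.08 (95% interval -0.06 to 0.21; edgeR adjusted p = 0.474). EFTUD2, for the U5 GTPase that controls that helicase, had 0.06, PRPF6, for the bridge of the tri-snRNP, 0.03, and DDX23, for the PRP28 helicase that displaces U1, 0.04.

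PRPF4, for a U4/U6 protein, was the lowest of the tri-snRNP genes in fold change. It had 79.3 and 85.8 CPM with ILF2 shRNA, against 91.2 and 94.2 CPM with non-silencing shRNA, without overlap (log2 fold change -0.17, SE 0.07; edgeR unadjusted p = 0.0198, adjusted p = 0.0825). Without ILF2 shRNA replicate 2 it was -0.23 and passed (adjusted p = 0.0324), and without replicate 1 it was -0.11 (adjusted p = 0.358). PRPF3, whose product binds that of PRPF4, had 155 and 152 CPM with ILF2 shRNA against 137 and 146 CPM with non-silencing shRNA and was the highest in fold change at 0.11 (edgeR adjusted p = 0.258). Per exon length PRPF6 was the highest at 61.3 ± 2.5 CPM per kb with ILF2 shRNA and 60 ± 0.989 with non-silencing shRNA (SD, n = 2 each), followed by PRPF8 at 51.6 ± 2.29 CPM per kb with ILF2 shRNA and 53 ± 1.4 with non-silencing shRNA. PRPF38A, for a protein of the precatalytic complex, was the lowest at 9.45 ± 0.112 CPM per kb with ILF2 shRNA and 9.45 ± 0.0119 with non-silencing shRNA, and its log2 fold change was 0.00. SNRNP40 had -0.10, TXNL4A -0.13, PRPF31 -0.07, SART1 -0.02, USP39 0.04 and PPIH 0.07.

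The LSm ring of U6 is encoded by 7 genes, of which 0 were called, with log2 fold changes from -0.16 to 0.06. LSM5 had 31.8 and 27.4 CPM with ILF2 shRNA, against 31.6 and 34.5 CPM with non-silencing shRNA. ILF2 shRNA replicate 2 was low while replicate 1 lay among the non-silencing libraries, and the log2 fold change was -0.16 (edgeR adjusted p = 0.167), or -0.27 without ILF2 shRNA replicate 1 (adjusted p = 0.0218) and -0.06 without replicate 2 (adjusted p = 0.75). LSM2 had the highest fold change of the ring genes, 0.06 on the log2 scale, and LSM8, whose product marks the nuclear ring as against the cytoplasmic one that takes part in mRNA decay, had 0.00. LSM3 had -0.05, LSM4 -0.09, LSM6 -0.01 and LSM7 -0.12. Per exon length LSM7, at 35.1 ± 2.05 CPM per kb with ILF2 shRNA and 38.1 ± 2.61 with non-silencing shRNA, LSM4 and LSM2 stood well above LSM3, LSM5, LSM8 and LSM6. LSM2 overlapped with LSM7 and came within the spread of LSM4 with ILF2 shRNA, while with non-silencing shRNA it lay below both. The lowest was LSM6 at 5.11 ± 0.678 CPM per kb with ILF2 shRNA and 5.13 ± 0.0148 with non-silencing shRNA (SD, n = 2 each). The annotated length of LSM8, 6210 bases in 2 blocks, and that of LSM5, 4694 bases, take in every annotated form of the gene, and the levels per length depend on that annotation.

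Of 8 genes of the PRP19 complex and its associates, 0 were called, with a median fold change of -0.01 on the log2 scale. The ubiquitin ligase gene PRPF19 had 115 and 125 CPM with ILF2 shRNA, against 117 and 108 CPM with non-silencing shRNA. The groups overlapped (log2 fold change 0.09, edgeR adjusted p = 0.411). SNW1, for the SKIP protein that also acts in transcription, had 112 and 103 CPM with ILF2 shRNA, against 120 and 121 CPM with non-silencing shRNA. Its groups were apart (log2 fold change -0.17, SE 0.07; edgeR unadjusted p = 0.0183, adjusted p = 0.0781), with -0.23 without ILF2 shRNA replicate 1 (adjusted p = 0.0218) and -0.11 without replicate 2 (adjusted p = 0.391). BUD31, for a protein near the active centre, went the other way, with 50.8 and 54.9 CPM with ILF2 shRNA against 47.3 and 46.5 CPM with non-silencing shRNA. Its log2 fold change was 0.17 (SE 0.07; edgeR unadjusted p = 0.0222, adjusted p = 0.0896), with 0.23 without ILF2 shRNA replicate 1 (adjusted p = 0.031) and 0.12 without replicate 2 (adjusted p = 0.401). AQR, for a helicase that binds the intron, had 0.10, BCAS2 0.03, PLRG1 -0.04, CRNKL1 -0.05 and CDC5L -0.11. Per exon length SNW1 was the highest at 44.1 ± 2.58 CPM per kb with ILF2 shRNA and 49.6 ± 0.42 with non-silencing shRNA, and PRPF19 overlapped with it with ILF2 shRNA but not with non-silencing shRNA. AQR, at 11.4 ± 0.277 CPM per kb with ILF2 shRNA and 10.6 ± 0.766 with non-silencing shRNA, and CRNKL1, at 10.9 ± 0.025 with ILF2 shRNA and 11.3 ± 0.657 with non-silencing shRNA (SD, n = 2 each), were the lowest, and their order differed between the groups.

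The remaining 7 genes act at single steps of the cycle, and 0 were called. SLU7, whose product helps to choose the 3′ splice site, had 70.2 and 62.8 CPM with ILF2 shRNA, against 55.7 and 60.9 CPM with non-silencing shRNA. Both ILF2 shRNA libraries were higher, with a log2 fold change of 0.19 (SE 0.07; edgeR unadjusted p = 0.0119, adjusted p = 0.0566). It passed at 0.20 when chromosome 5 was left out of the scaling (adjusted p = 0.0451) and at 0.27 without ILF2 shRNA replicate 2 (adjusted p = 0.00797), whereas it was 0.11 without ILF2 shRNA replicate 1 (adjusted p = 0.368). SLU7 is the other member on chromosome 5, beside DDX46, and the median of 0.15 there lies between the values of these genes. Whether they move with the chromosome was not tested.

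DHX15, for the PRP43 helicase that takes the spliceosome apart, had 277 and 273 CPM with ILF2 shRNA, against 299 and 311 CPM with non-silencing shRNA. The groups were well apart, with a log2 fold change of -0.15 (SE 0.07; edgeR unadjusted p = 0.0258, adjusted p = 0.0999). DHX16, for the PRP2 helicase of activation, had -0.08, as did DHX38, for the PRP16 helicase of the second step, and DHX8, for the PRP22 helicase that releases mRNA, had -0.05. CDC40 had -0.08. PRPF18, a second-step factor gene, was the least abundant member, with 643 to 739 fragments a library and a log2 fold change of 0.00 (95% interval -0.20 to 0.19). Per exon length DHX15 was the highest of the step factors at 33.7 ± 0.29 CPM per kb with ILF2 shRNA and 37.4 ± 1.03 with non-silencing shRNA, and PRPF18 the lowest at 5.38 ± 0.565 with ILF2 shRNA and 5.38 ± 0.162 with non-silencing shRNA (SD, n = 2 each). Of the exon bases of PRPF18, 42% are shared with another gene on its strand, and per unshared kb it had 9.27 CPM with ILF2 shRNA and 9.28 with non-silencing shRNA. On that scale CDC40 was lower, at 5.81 CPM with ILF2 shRNA and 6.14 with non-silencing shRNA, and on the full length CDC40 and PRPF18 overlapped with ILF2 shRNA.

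The spread between replicates of these genes followed their base composition. Over the 59 members, whose exons held 34.9% to 64.9% GC, the log2 difference of replicate 2 over replicate 1 had a Pearson r of 0.683 with GC content in the ILF2 shRNA libraries and of -0.736 in the non-silencing libraries. These are descriptions across genes of the same 4 libraries, and genes are not independent replicates. With ILF2 shRNA, the 30 members of higher GC content had a median replicate difference of 0.08 and the 29 others one of -0.11. With non-silencing shRNA the medians were -0.06 for the 30 members and 0.08 for the 29 others, so the trend ran opposite ways in the groups. The difference between groups had an r of 0.0332 with GC content. In 40 of 59 members the log2 fold change between groups was smaller than the larger of the replicate differences.

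**Figure D4:**
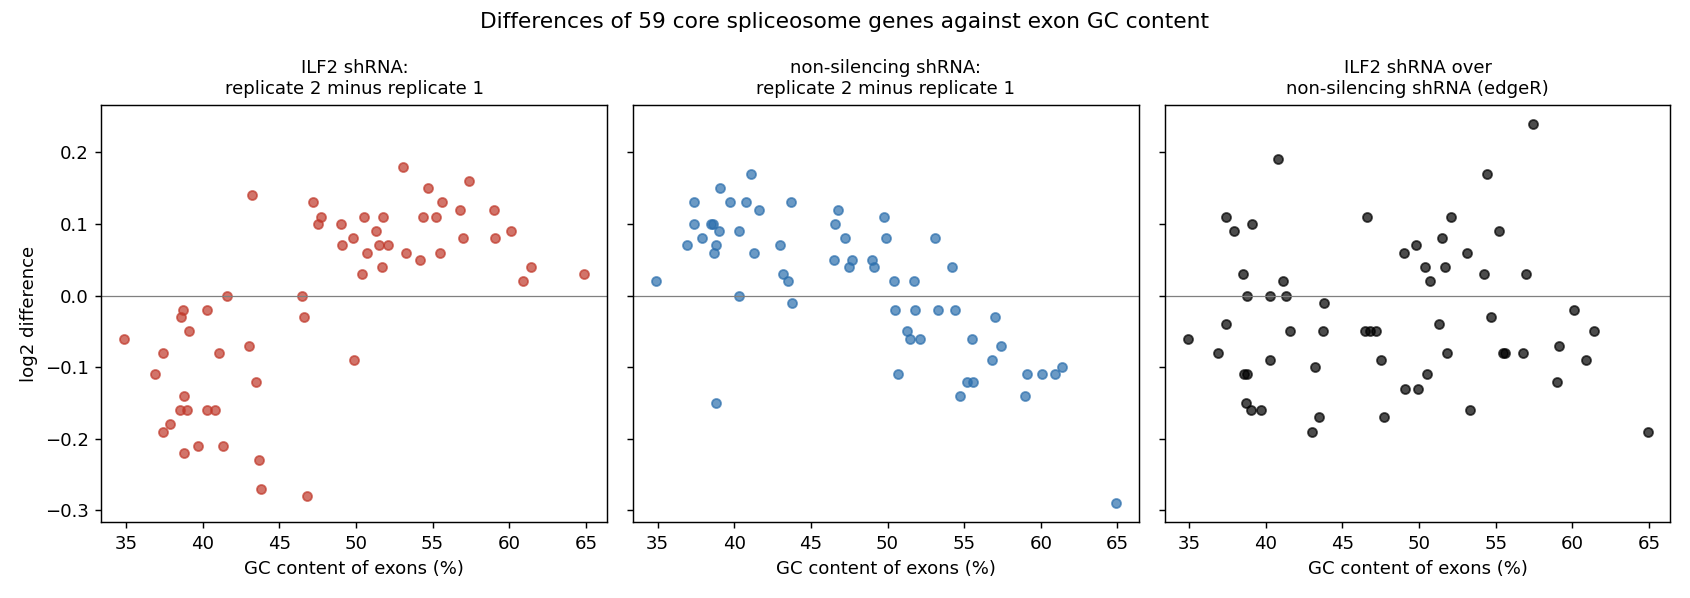
Log2 differences of the 59 core spliceosome genes (vertical axis) against the GC content of their exons (horizontal axis, %), between the ILF2 shRNA replicates, between the non-silencing replicates, and between the groups. The replicate differences climb with GC content with ILF2 shRNA and decline with it with non-silencing shRNA, and the difference between groups has no such slope (r of 0.683, -0.736 and 0.0332).

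When a smooth trend on GC content and exon length was taken out of each library, 5 members were higher and 11 lower (edgeR adjusted p under 0.05), or 27.1% of them. After the same correction 30.5% of all tested genes were called, 15.8% higher and 14.8% lower, so the share of members stood near the background. The 5 higher members were SF3B5, SLU7, BUD31, DDX46 and AQR. The 11 lower ones were SF3A2, SNRPA1, SF3B2 and PHF5A of U2, SNRPB and SNRPD1 of the Sm ring, PRPF4 and TXNL4A of the tri-snRNP, LSM5, SNW1 and DHX15. Their log2 fold changes hardly moved: SF3B5 had 0.26 after the correction (edgeR adjusted p = 2.3e-05), SNW1 -0.19 (7.5e-04), SNRPB -0.18 (7.4e-04), PRPF4 -0.19 (0.00141) and SLU7 0.19 (0.00147). SF3A2, the member of highest GC content, went furthest, to -0.12 (0.0377) after correction against -0.19 on the counts as deposited. The correction also takes out any difference between the groups that itself follows GC content or length.

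**Figure D5:**
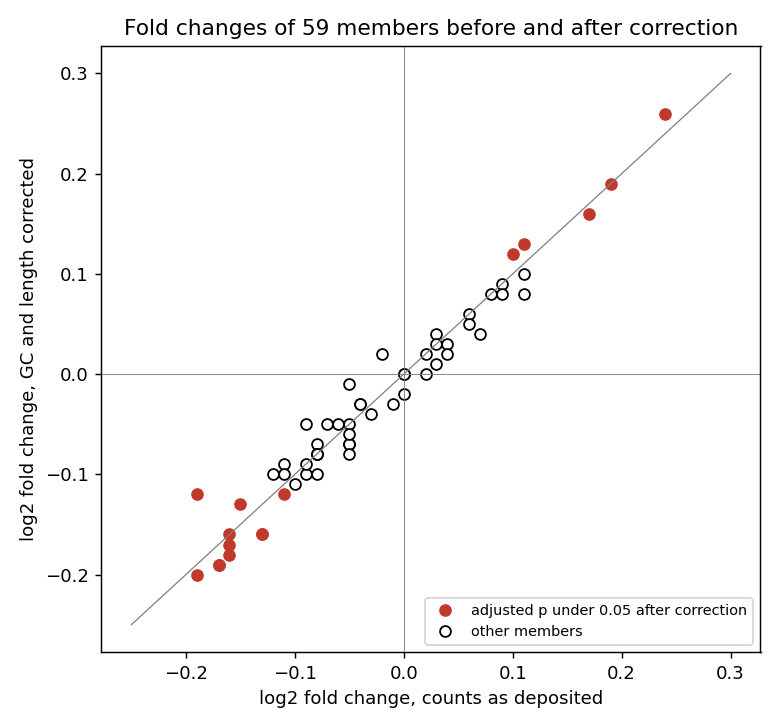
Log2 fold change of each core spliceosome gene on the counts as deposited (horizontal axis) and after correction for GC content and exon length (vertical axis), with a line of equality. The 16 members called after correction are filled, and they keep their direction, from -0.20 for SNRPA1 to 0.26 for SF3B5.

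A list of 107 other splicing genes was chosen from general knowledge, with earlier results of these data known. Of these, 105 were tested, and 5 rose and 2 fell (edgeR adjusted p under 0.05). Over all tested genes 10.2% rose and 10.1% fell, a larger share than in this list. On the log2 scale their median was -0.03 and the range -0.29 to 0.28. Of 38 tested genes for other proteins of the assembling and active spliceosome, 4 rose and 0 fell. These were IK and RBM22, with log2 fold changes of 0.25 and 0.23 (edgeR adjusted p = 0.00515 and 0.0137), CWC27 with 0.24 and DDX41 with 0.21. All 4 lie on chromosome 5, where the median was 0.15. Among 7 relatives of the Sm and LSm genes, LSM10, which replaces an Sm protein in the U7 snRNP of histone mRNA processing, rose, with 31.7 and 34.7 CPM with ILF2 shRNA against 29.5 and 25.4 CPM with non-silencing shRNA (log2 fold change 0.28, edgeR adjusted p = 0.00952). Of 20 genes for snRNP assembly, 1 fell, the PRMT5 cofactor gene COPRS (log2 fold change -0.29, edgeR adjusted p = 0.0102). Of 20 genes of U1-associated and branch point factors, 1 fell, LUC7L2 (log2 fold change -0.23, edgeR adjusted p = 0.0311). None of the 12 minor spliceosome genes or of the 8 tested exon junction complex genes was called by edgeR, and at an unadjusted p under 0.05 there were 1 and 2 lower and 0 higher. The calls among the 105 genes changed when single libraries were left out, which leaves 1 library in a group.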

How the data were processed

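Total RNA of H929 cells was sequenced in 4 libraries, grouped by their titles into ILF2 shRNA and non-silencing shRNA. Each deposited file holds whole-number fragment counts by gene. Per the file headers, the authors counted with featureCounts 1.4.6-p2, strand setting 2 and the Ensembl release 75 annotation of GRCh37. The submitters' processing notes also list STAR 2.3.0 and SAMtools 0.1.19, while the design text names Tophat2. The command in the headers has no option that counts fragments with several matching places or genes. The 5904 genes on other contigs all had 0 counts. Symbols were matched by Ensembl ID for 55665 of 63677 genes.

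Counts were tested in edgeR 4.0.16 (R 4.3.3) with TMM factors, the filterByExpr filter with a minimum count of 10, robust quasi-likelihood fits on group alone, and p-values adjusted by Benjamini-Hochberg over 19142 genes. All tests are two-sided, and SEs come from the F statistic. Residual degrees of freedom were 2, beside a median of 56.1 prior degrees of freedom from variance shared across genes. The biological coefficient of variation was 5.38%. CPM per kb divides CPM by the exon length in the files. The p-values rest mostly on the spread between libraries pooled over genes, and less on each gene's own spread. The submitters call these libraries independent replicates. Alternatives were DESeq2 1.42.0, limma-voom (limma 3.58.1), other scaling and filters, mitochondrial and 20 small RNA genes left out, replicate blocks, trends on GC content and length (mgcv 1.9.3), and each library left out. The procedure was tested on simulated counts with 1 dispersion for all genes and no trend on GC content. That test therefore does not cover the GC trend between replicates seen here.

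The members and lists were chosen with earlier results of these data known. Genes named in detail are ILF2, members past the threshold in edgeR or in an alternative with all libraries, those at an unadjusted p under 0.05, the extremes of level and fold change in each class, the Sm genes, and PRPF8, SNRNP200, EFTUD2 and SF3B1. Named related genes are the called ones, at most 4 a list. Same-numbered libraries shared only a number.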

Additional observations from a re-analysis of the deposited data

How the results depend on the processing

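The median log2 fold change of the members ran from -0.06 to -0.03 over all alternatives, and all 59 intervals lay within -0.5 to 0.5 in each alternative that gives them, other than without non-silencing replicate 2, where 58 did. ILF2 was called in all of them (-2.76 to -2.66). Member calls of 1 higher and 0 lower became 2 higher with chromosome 5 left out of the TMM scaling, where 20.6% of all tested genes were called. With no low-count filter 1 was lower, beside 11.4% of all genes called. After the GC and length correction there were 5 higher and 11 lower, with or without the block. Over all tested genes the same fits called 29.5% with the block and 30.5% without it. With libraries left out in turn they ran from 0 to 2 higher and from 0 to 3 lower. The related genes, 5 higher and 2 lower, became 1 lower by DESeq2, 9 higher and 18 lower after the GC and length correction, and 10 and 16 with the replicate block beside it; with libraries left out they ran from 0 to 5 higher and from 0 to 7 lower. For the related genes after that correction, the shares of all tested genes are likewise 30.5% without the block and 29.5% with it. Each fit with a library left out has 1 library in a group, so its counts are not compared with all tested genes. The causes of these shifts in calls were not tested.

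The titles give both groups the numbers 1 and 2, with nothing that pairs them. Deviations of same-numbered libraries had a correlation of -0.0247 over all tested genes and of -0.231 over the 13737 of at least 1 CPM. With the replicate block 0 members were higher and 0 lower (SF3B5 adjusted p = 0.0974), beside 13.5% of all tested genes called, and 0 related genes were called either way. With the pairing crossed, an alternative chosen after seeing the data, 4 members were higher and 10 lower, or 23.7% beside 29.9% of all tested genes, and 12 related genes higher and 15 lower. The exon length without shared bases moved the level per kb of SNRPB, SNRPD1, SNRPD3 and PRPF18 by more than 1 SD, and of no other member. The least abundant member had 643 to 739 fragments a library, which limits its precision most.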

Other observations

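Since the 1 called member has no intron in the annotation, the other tested genes of that kind were counted, a group chosen after its value was seen. Of 333 tested protein-coding genes with 1 exon block, 40 rose and 47 fell (edgeR adjusted p under 0.05), with a median log2 fold change of 0.01. With histone genes left out, 40 of 306 were higher and 28 lower, or 13.1% and 9.15%. Among 12752 protein-coding genes with more exon blocks, 12.4% were higher and 12.3% lower. These counts are descriptions, with no test between the groups of genes.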
